A study of Mus musculus with 9 samples.

Results

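The 9 genes described here encode proteins of the red cell surface: Gypc, Kel, Rhag, Rhd and Ermap, known first of all as carriers of blood group antigens, Aqp1 and Slc14a1, which are channels for water and urea, and Cd44 and Cd36, which bind ligands outside the cell. They were chosen by name, out of 20018 gene symbols to which the probes of the array could be matched, and every non-control probe whose RefSeq accession belongs to one of them was taken. This gave 14 probes, of which Ermap had 3, Cd44 had 4 and each other gene had 1. All 9 genes passed the filter on dim probes, and 2 of the 4 Cd44 probes did not.

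The study is about iron deficiency anemia in mice, mitophagy and gene expression in erythroblasts, the cells of the marrow that mature into red cells. RNA was measured on 9 one-colour arrays, 3 for each of 3 groups: wild-type mice on normal diet (ND), and wild-type mice kept on a low iron diet from weaning for 3 weeks (LID_W_3w) or for 7 weeks (LID_W_7w). All were C57BL/6J, labelled female, and the cells were bone marrow erythroblasts of a sorted class called subset II. Samples within a group are biological replicates per the design text, but the ages of the groups, the number of animals behind a sample and the surface markers that define subset II are not given in the sources used here, so whether a protein of these 9 genes served in the sort is not known.

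Blood group antigens sit on proteins that do other work in the membrane. Band 3 and the Rh proteins form large complexes tied to the spectrin skeleton through ankyrin and protein 4.2, while glycophorin C and the Kell protein with its partner Xk belong to a complex held by protein 4.1. As erythroblasts mature they take these proteins up and shed adhesion receptors such as Cd44 and the integrins, and Cd36 is known from early erythroid cells as well as from macrophages, platelets and small vessels. A pair of motifs is often found near the starts of red cell genes, the GATA motif read by Gata1 and the CACCC motif read by Klf1.

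The promoter windows below were picked by the outcome of the test: Aqp1 and Cd36 fell in at least 1 comparison, and Kel and Rhd passed in none. Not passing does not show that a gene was unchanged, and whether a motif goes with a response was not tested. Each is the 250 bases before the annotated start of the gene, 5′ to 3′ on the strand of the gene, from RefSeq on build GRCm38.p6. Capitals mark every match to a GATA motif or to the CACCC motif, on either strand. The GATA motif searched for was the letters GATA preceded by A or T and followed by A or G. The 2 motifs share no letters in these windows. A CACCC match on the strand opposite to the gene appears as GGGTG, and a GATA match as TTATCA or the like.

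Aqp1: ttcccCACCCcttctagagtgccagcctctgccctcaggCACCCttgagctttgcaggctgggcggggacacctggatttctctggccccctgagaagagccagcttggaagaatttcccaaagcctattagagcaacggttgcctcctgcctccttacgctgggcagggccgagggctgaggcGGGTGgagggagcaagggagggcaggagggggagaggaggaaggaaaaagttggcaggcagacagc

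Cd36: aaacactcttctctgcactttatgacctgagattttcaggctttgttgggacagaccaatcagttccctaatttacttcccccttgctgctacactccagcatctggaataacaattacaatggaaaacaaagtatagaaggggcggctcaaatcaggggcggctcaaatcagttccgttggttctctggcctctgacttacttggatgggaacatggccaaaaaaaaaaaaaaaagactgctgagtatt

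Kel: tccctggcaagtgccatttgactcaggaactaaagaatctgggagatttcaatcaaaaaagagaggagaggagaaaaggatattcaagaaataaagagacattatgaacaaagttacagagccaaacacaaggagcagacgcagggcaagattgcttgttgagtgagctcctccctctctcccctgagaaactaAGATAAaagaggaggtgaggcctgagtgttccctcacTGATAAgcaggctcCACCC

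Rhd: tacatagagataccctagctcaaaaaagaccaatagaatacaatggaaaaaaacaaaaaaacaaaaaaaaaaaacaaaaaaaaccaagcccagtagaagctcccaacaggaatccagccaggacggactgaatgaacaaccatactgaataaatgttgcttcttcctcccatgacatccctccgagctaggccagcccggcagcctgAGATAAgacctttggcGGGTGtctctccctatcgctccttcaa

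These windows lie at chr6:55336049-55336298 on the plus strand for Aqp1, chr5:17835897-17836146 on the minus strand for Cd36, chr6:41704326-41704575 on the minus strand for Kel and chr4:134864286-134864535 on the plus strand for Rhd. Windows were read for 7 of the 9 genes, not for Gypc, which did not pass, or for Slc14a1, which fell at 7 weeks. Kel had 2 GATA matches, starting 56 and 19 bases before the start, and a CACCC match that ends 1 base before it. Rhd had a GATA match starting 43 bases before the start and a CACCC match on the other strand at 27 bases. Rhag and Ermap each held 1 match of either kind as well, the GATA match of Rhag at 31 bases and that of Ermap at 67 bases before the start. Aqp1 had 3 CACCC matches and no GATA match, Cd44 had 1 GATA match 233 bases before the start, and Cd36 had neither. Of 32851 promoter windows of the same length, 26.5% held a GATA motif, 52% held CACCC and 11.8% held both. A match is only a run of letters in this window, and no factor's binding was measured.

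Over the arrays as a whole, the 7 week group stood apart. On the normal diet arrays 65.5% to 66.3% of spots were well above background, on the 3 week arrays 56.8% to 70.8% and on the 7 week arrays 45.2% to 53.6%, and the 75th percentile of the signal was 1499 to 1616, 1677 to 1837 and 791.7 to 1087. At 7 weeks an array's mean r with its own group was 0.924 to 0.943, lower than for each of the other 6 arrays, and the log2 level of the spike-in controls was higher, 4.42 to 5.36 where those 6 had 0.57 to 1.74. The part of these differences in the 7 week results was not tested. The 3 groups were on 3 different slides, each scanned separately, so an effect of slide or scan cannot be told apart from one of diet. The 8 erythroblast markers were all well above background on every array. Normal diet replicates 1 and 2 went against their label: Eif2s3y, a Y-linked gene, was at log2 levels of 5.12 and 4.82 there, against -3.77 on replicate 3 and no level well above background on the 6 low iron arrays. Xist, the RNA that silences an X chromosome in females, was at -6.73 and -4.82 on these 2 arrays by 1 probe, against -0.41 on replicate 3. Comparisons with normal diet were therefore also made with replicate 3 as the only control, where 0 genes passed at 3 weeks (1588 at an unadjusted p under 0.05) and 1 gene passed at 7 weeks (3047).

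A level below is the log2 signal of a probe minus the 75th percentile of the log2 signals of its array, so that 0 is that percentile. Levels of different probes are not set against each other, except in the marker sums, which add them on the linear scale. Those sums mostly follow the brightest probes of a list. A fold change is a difference of group means on that log2 scale, given with the standard error and the Benjamini-Hochberg adjusted p of limma over 14506 genes, and a gene passed where the adjusted p was under 0.05. These are bulk RNA values from sorted cells, in which fewer cells of a type and less RNA per cell cannot be told apart.

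After 3 weeks of low iron diet 1 of the 9 genes had fallen, Aqp1, and none had risen. After 7 weeks Aqp1, Slc14a1 and Cd36 were lower than on normal diet, and Slc14a1 and Cd36 were also lower than at 3 weeks. Gypc, Kel, Rhag, Rhd, Ermap and Cd44 did not pass in any of the 3 comparisons. Over all genes, 11.4% passed at 3 weeks, 29.5% at 7 weeks and 37.2% between the low iron groups, against 1, 3 and 2 of these 9, so their count was near the background in each comparison. Both comparisons with normal diet use the same 3 control arrays. By probe, 1, 4 and 3 of 12 tested probes were lower and 0 higher, against 13.2%, 30.3% and 39.6% of all 34486 tested probes. Groups did not overlap for 6, 4 and 4 of the 9 genes, and for 49.5%, 47.4% and 48.4% of all genes.

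**Figure D1:**
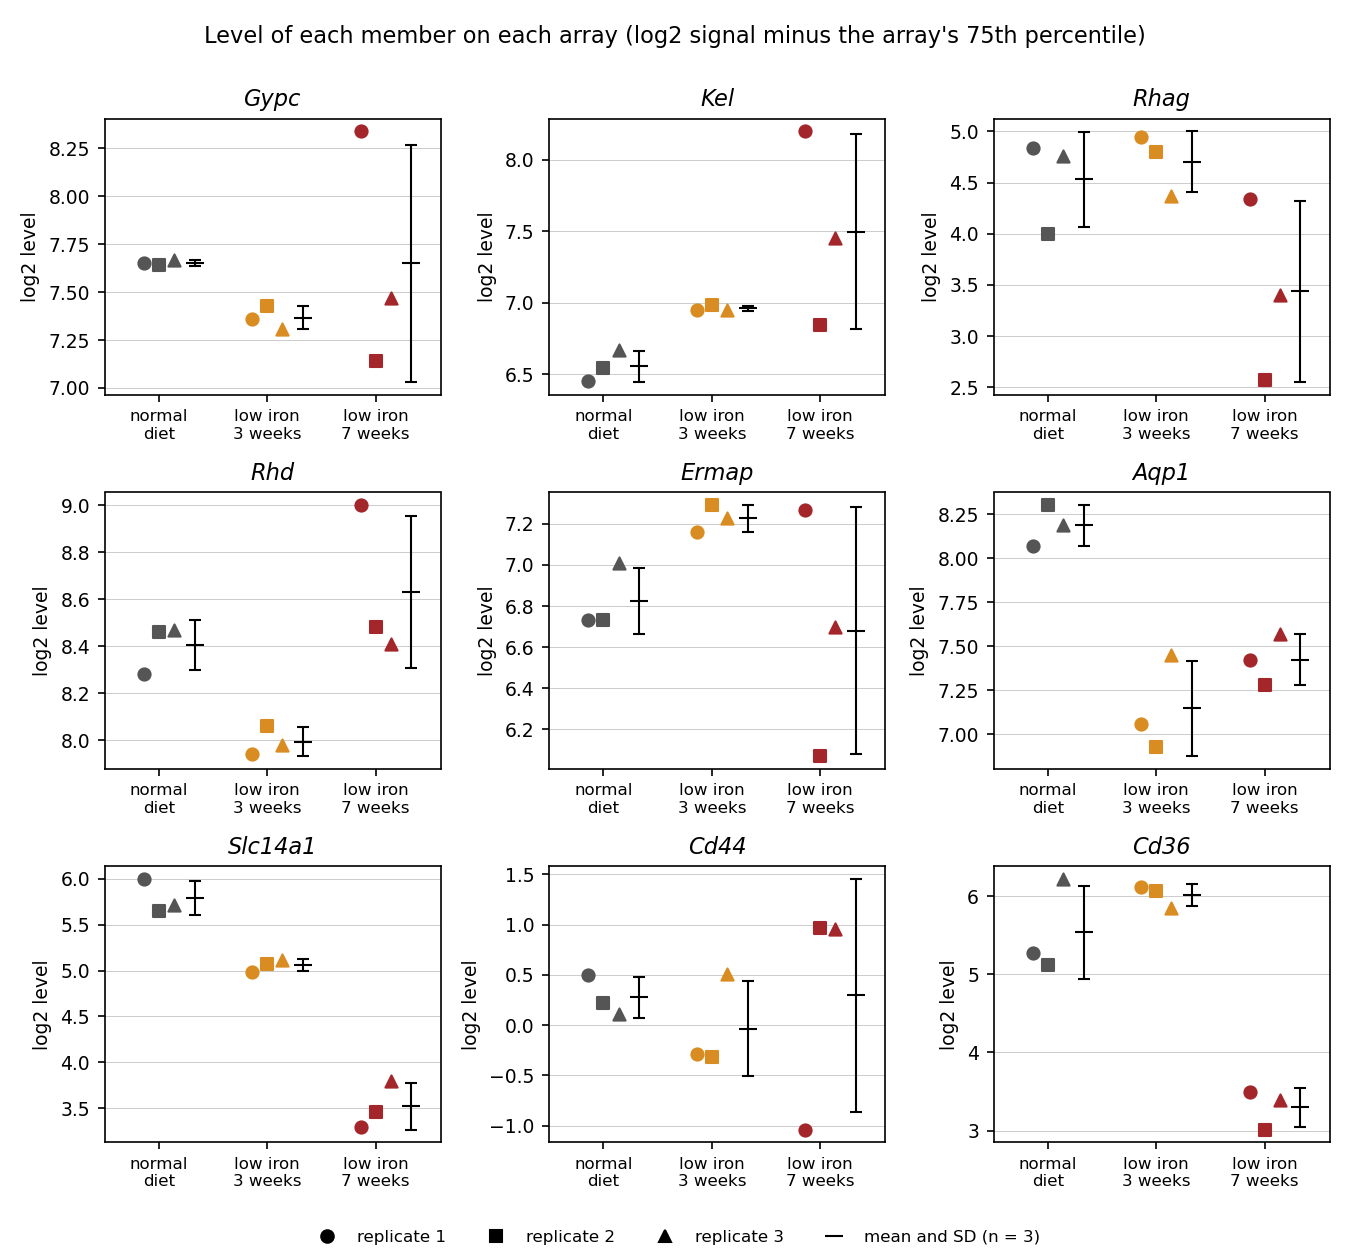
Level of each of the 9 genes on each array (y axis, log2 signal minus the 75th percentile of the array; each panel has its own range) in the normal diet, 3 week and 7 week groups, with the mean and SD of 3 arrays beside the points. Slc14a1 steps down over the 3 groups with no overlap, Cd36 is low only on the 7 week arrays, between 3.01 and 3.49, and Aqp1 is lower on all 6 low iron arrays than on the normal diet arrays.

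The scaling matters for the 7 week group. The median of all genes was -0.17, -0.26 and -0.13 on the log2 scale at 3 weeks and at 7 weeks, each against normal diet, and between the low iron groups. Without scaling between arrays these medians were -0.01, -1.07 and -1.09, and with quantile normalization -0.01, -0.24 and -0.26. Genes that passed split into 510 higher and 1143 lower at 3 weeks (624 and 785 with quantile normalization, 492 and 474 without scaling). At 7 weeks against normal diet the split was 1559 and 2719 (454 and 6646 without scaling), and between the low iron groups 2546 and 2845 (826 and 6804 without scaling). With no filter on dim probes more genes were higher than lower in both, 4178 and 2761, then 4723 and 2818.

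Gypc, which encodes glycophorin C, the carrier of the Gerbich antigens and an anchor for protein 4.1, was at 7.65, 7.64 and 7.67 on the 3 normal diet arrays, at 7.36, 7.43 and 7.31 at 3 weeks, and at 8.34, 7.14 and 7.47 at 7 weeks. All 3 arrays at 3 weeks were below all normal diet arrays, while the 7 week arrays lay on both sides of them, with replicate 1 the highest of all 9. The differences were -0.29 ± 0.32 (adjusted p = 0.587) at 3 weeks and -0.01 ± 0.32 (adjusted p = 0.988) at 7 weeks, with 95% intervals from -1.01 to 0.44 and from -0.73 to 0.72. Between the low iron groups the difference of 0.28 ± 0.32 (adjusted p = 0.522) changed sign with quantile normalization, to -0.82 with an adjusted p of 0.042.

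Kel encodes the Kell protein, a zinc endopeptidase of the red cell surface. Its levels were 6.45, 6.54 and 6.67 on normal diet, 6.95, 6.98 and 6.95 at 3 weeks and 8.2, 6.84 and 7.45 at 7 weeks. Every low iron array was above every normal diet array, and the spread at 7 weeks (SD 0.68, n = 3) was far wider than at 3 weeks (SD 0.02, n = 3). The differences from normal diet, 0.41 ± 0.34 (adjusted p = 0.461) and 0.94 ± 0.34 (adjusted p = 0.0651), did not pass, and the second was 0.14 before scaling and passed without 7 week replicate 2 (1.27, adjusted p = 0.0216). With quantile normalization Kel passed at 3 weeks, at 1.21.

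Rhag, the Rh-associated glycoprotein and a channel for ammonia, was at 4.84, 4 and 4.76 on normal diet, at 4.94, 4.8 and 4.37 at 3 weeks, and at 4.34, 2.57 and 3.4 at 7 weeks. Replicate 1 at 7 weeks fell within the range of the normal diet arrays, and the other two were below them all. The difference between the low iron groups, -1.26 ± 0.45 (adjusted p = 0.0543), and that of 7 weeks from normal diet, -1.10 ± 0.45 (adjusted p = 0.0952), did not pass. Both passed without 7 week replicate 1, at -1.71 (adjusted p = 0.00735) and -1.55 (adjusted p = 0.016). At 3 weeks the difference from normal diet was 0.17 ± 0.45 (adjusted p = 0.84).

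Rhd, the Rh blood group protein that assembles with Rhag, was at 8.28, 8.46 and 8.47 on normal diet, at 7.94, 8.06 and 7.98 at 3 weeks, and at 9, 8.48 and 8.41 at 7 weeks. The 3 week arrays were the lowest 3 of the 9. None of its differences passed: -0.41 ± 0.25 (adjusted p = 0.311) at 3 weeks, 0.23 ± 0.25 (adjusted p = 0.516) at 7 weeks and 0.64 ± 0.25 (adjusted p = 0.0752) between the low iron groups. The last 2 values changed sign without scaling, to -0.58 and -0.32, while with normexp the last passed as higher (0.66, adjusted p = 0.0396). The signal of this probe was between 38% and 71.2% of the saturation value of the scanner.

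Ermap encodes a transmembrane protein of the butyrophilin kind that carries the Scianna antigens, and its 3 probes did not move alike. By its brightest probe, A_55_P2153382, which stands for the gene in the counts above, it was at 6.73, 6.73 and 7.01 on normal diet, at 7.16, 7.29 and 7.23 at 3 weeks, and at 7.27, 6.07 and 6.7 at 7 weeks. The 3 week arrays were all above the normal diet arrays, and the 7 week arrays spread over both groups. The differences were 0.40 ± 0.32 (adjusted p = 0.44), -0.14 ± 0.32 (adjusted p = 0.756) and -0.55 ± 0.32 (adjusted p = 0.21) in the 3 comparisons.

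The dimmest Ermap probe, A_55_P2153381, was at 1.15, 0.85 and 1.61 on normal diet, at 2.04, 1.9 and 1.62 at 3 weeks, and at 0.04, -0.66 and -0.19 at 7 weeks. All 3 of its 7 week levels were below the other 6, and it fell against normal diet by 1.48 ± 0.3 (adjusted p = 0.00949 over all probes) and against 3 weeks by 2.13 ± 0.3 (adjusted p = 0.000994). The remaining probe, A_51_P391716, was at 6.08, 6.08 and 6.68, then at 6.64, 6.37 and 6.13, and then at 7.42, 6.15 and 6.74 in the same order. Its groups overlapped in every comparison, and at 7 weeks it differed from normal diet by 0.49 (adjusted p = 0.321) and from 3 weeks by 0.39 (adjusted p = 0.413).

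**Figure D2:**
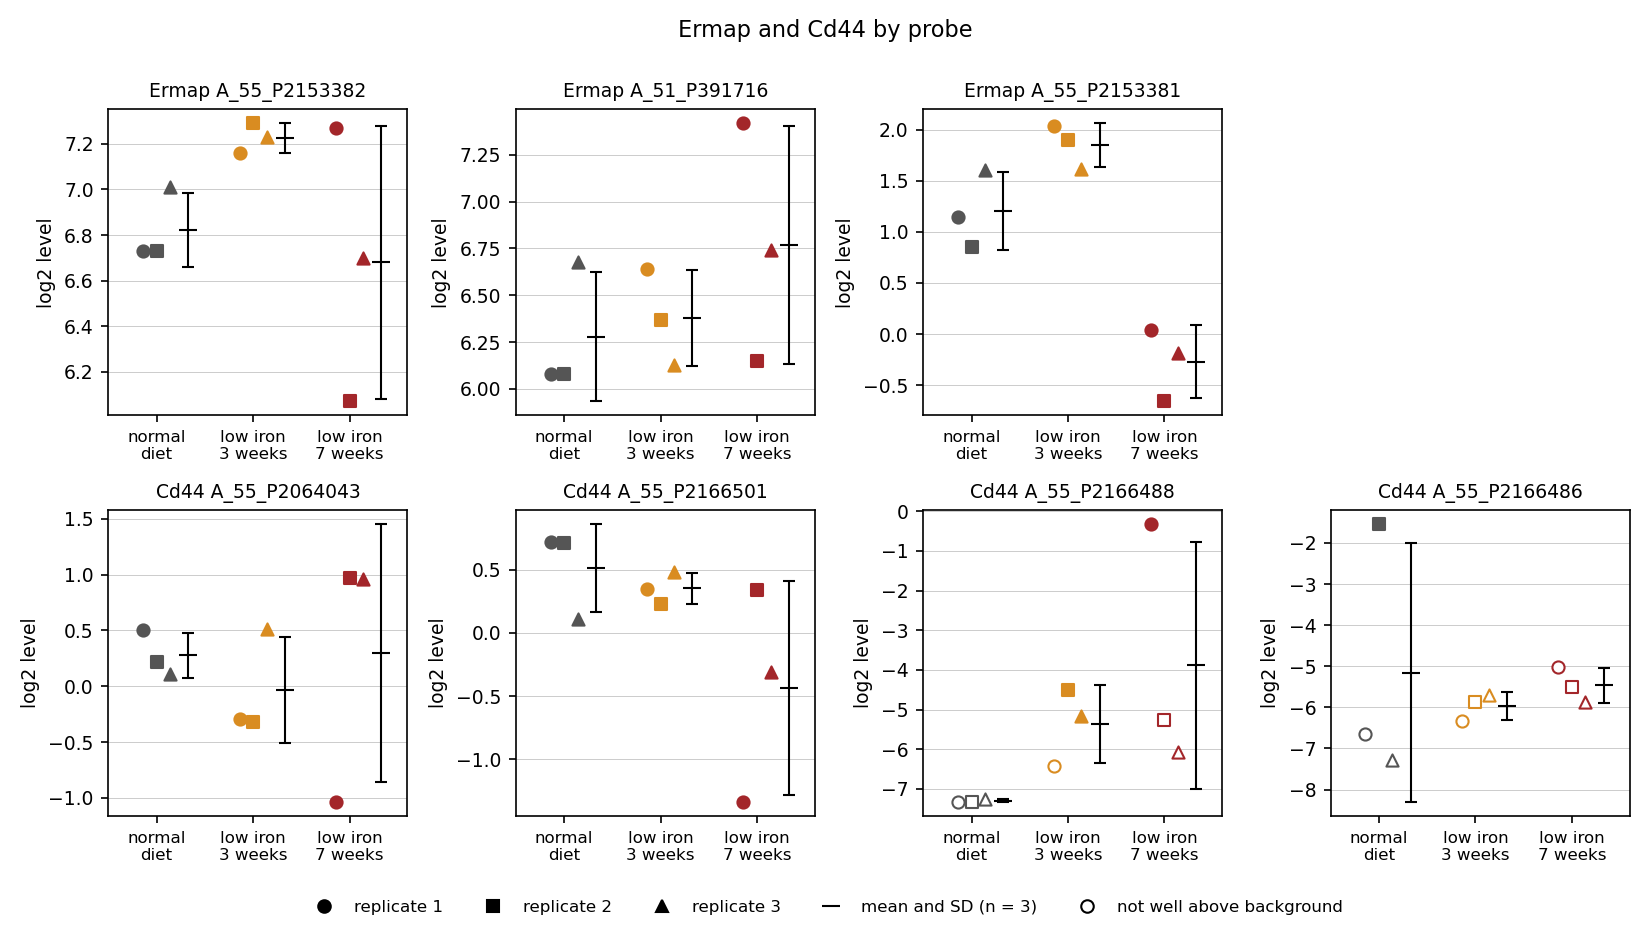
Levels of the 3 Ermap probes and the 4 Cd44 probes on each array (y axis, log2 signal minus the 75th percentile of the array; each panel has its own range), with the mean and SD of 3 arrays per group; open symbols were not well above background. Of the Ermap probes A_55_P2153381 alone has all 7 week arrays below the other 6, and the 2 dim Cd44 probes are mostly open.

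Aqp1 encodes the water channel of red cells and carries the Colton antigens. Its levels were 8.07, 8.3 and 8.19 on normal diet, 7.06, 6.93 and 7.45 at 3 weeks, and 7.42, 7.28 and 7.57 at 7 weeks. No low iron array reached the normal diet arrays, and the 2 low iron groups overlapped. Aqp1 fell 2.06-fold at 3 weeks (-1.04 ± 0.25, adjusted p = 0.0319) and 1.7-fold at 7 weeks (-0.76 ± 0.25, adjusted p = 0.0483), while 7 against 3 weeks differed by 0.28 ± 0.25 (adjusted p = 0.408).

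Neither call on Aqp1 was firm. Of 19 alternatives, 10 kept the 3 week call, with adjusted p from 0.00387 to 0.448 over all of them, and it was lost with quantile normalization (-0.56, adjusted p = 0.139), without scaling (-0.88, adjusted p = 0.109) and without any 1 of 5 arrays. The 7 week call held in 4 alternatives and was lost without any 1 of the 9 arrays, at adjusted p from 0.0501 to 0.128. With replicate 3 as the only control it was at -1.05 (adjusted p = 0.448) and -0.77 (adjusted p = 0.344). Its direction was the same in all 19 for both comparisons, with values from -1.20 to -0.56 and from -1.57 to -0.65. Some of the 19 could not move these values, only their error or adjusted p. The signal was 55.7% to 60.5% of saturation on normal diet.

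Slc14a1, the urea transporter of red cells and carrier of the Kidd antigens, showed the clearest order over the diet groups. It was at 6, 5.65 and 5.72 on normal diet, at 4.99, 5.07 and 5.12 at 3 weeks, and at 3.3, 3.46 and 3.8 at 7 weeks. No 2 groups overlapped: each 3 week array was below each normal diet array, and each 7 week array below both. The 3 week difference of -0.73 ± 0.25 (adjusted p = 0.0882) did not pass. At 7 weeks Slc14a1 fell 4.82-fold against normal diet (-2.27 ± 0.25, adjusted p = 0.00171) and 2.9-fold against 3 weeks (-1.54 ± 0.25, adjusted p = 0.00213).

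The 7 week falls of Slc14a1 held over most processing, though some alternatives, such as leaving out an array of the group not compared, could not move the fold change. Against 3 weeks it passed in all 19 alternatives, with values from -2.50 to -1.40, and against normal diet in 18, the exception being the fit with replicate 3 as the only control (-2.20, adjusted p = 0.0751). The 3 week difference passed in 3 of 19, among them the fit of the 2 groups alone (adjusted p = 0.0321), and was -0.20 with quantile normalization.

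**Figure D3:**
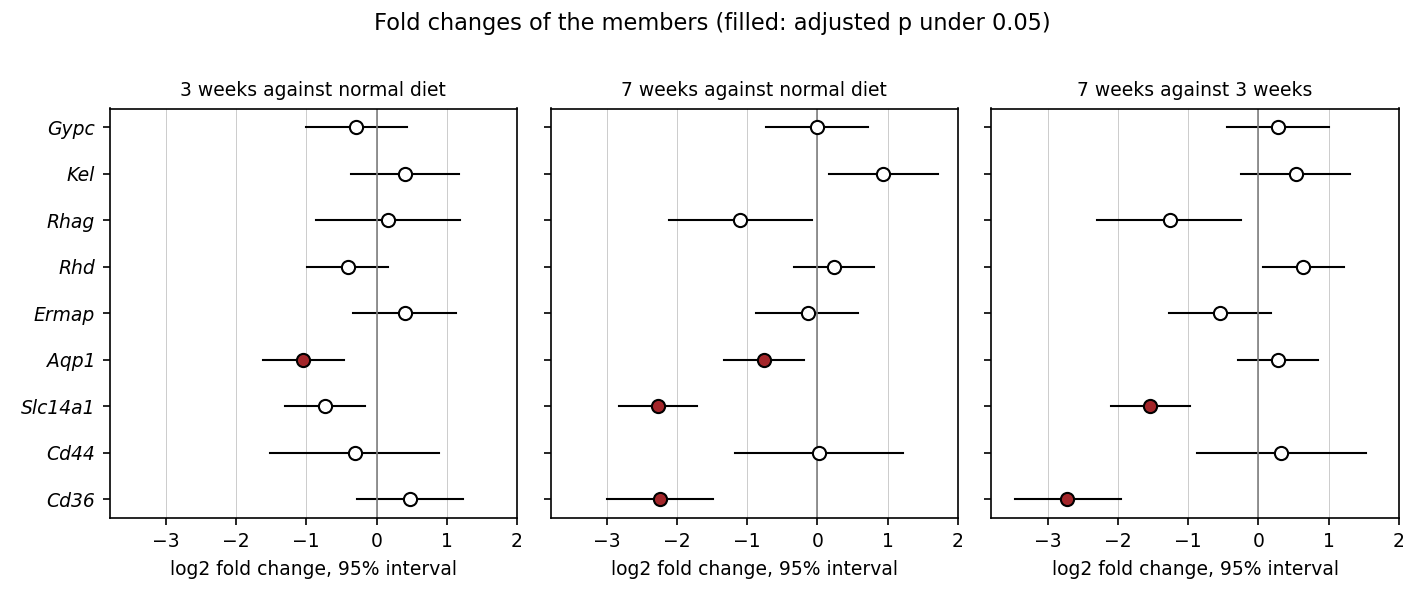
Fold changes of the 9 genes (x axis, log2) with 95% intervals from limma in the 3 comparisons, from 3 arrays per group; filled points had an adjusted p under 0.05 over all genes. Filled points are Aqp1 at 3 weeks, Aqp1, Slc14a1 and Cd36 at 7 weeks, and Slc14a1 and Cd36 between the low iron groups, all to the left of 0.

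Cd44, the hyaluronan receptor that carries the Indian antigens, was read by 2 tested probes of modest signal, from 0.0402% to 0.342% of saturation. The brighter, A_55_P2064043, was at 0.5, 0.22 and 0.11 on normal diet, at -0.29, -0.32 and 0.51 at 3 weeks, and at -1.04, 0.97 and 0.96 at 7 weeks. The 7 week arrays held both the lowest and the highest levels of the 9, and all groups overlapped. Its differences were -0.31 ± 0.53 (adjusted p = 0.73), 0.02 ± 0.53 (adjusted p = 0.983) and 0.33 ± 0.53 (adjusted p = 0.654), with a 95% interval from -1.18 to 1.22 for 7 weeks against normal diet.

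Probe A_55_P2166501 of Cd44 was at 0.72, 0.71 and 0.11 on normal diet, 0.35, 0.23 and 0.48 at 3 weeks and -1.34, 0.34 and -0.31 at 7 weeks. It also overlapped between all groups, and 7 weeks against normal diet came to -0.95 (adjusted p = 0.111), where the brighter probe gave 0.02. The other 2 probes were close to the background. A_55_P2166488 was well above background on 3 week replicates 2 and 3 (-4.5 and -5.15) and 7 week replicate 1 (-0.32) and on no normal diet array, so no fold is given for it. A_55_P2166486 was well above background on normal diet replicate 2 alone, at -1.54.

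Cd36, a scavenger receptor and fatty acid transporter of the cell surface, was at 5.27, 5.12 and 6.22 on normal diet, at 6.12, 6.07 and 5.85 at 3 weeks, and at 3.49, 3.01 and 3.39 at 7 weeks. The 7 week arrays were all below the other 6, and normal diet replicate 3 was level with the 3 week arrays rather than with its own group. At 3 weeks the difference from normal diet was 0.48 ± 0.34 (adjusted p = 0.375), and it was -0.21 with replicate 3 as the only control. At 7 weeks Cd36 fell 4.72-fold against normal diet (-2.24 ± 0.34, adjusted p = 0.00353) and 6.57-fold against 3 weeks (-2.72 ± 0.34, adjusted p = 0.000759).

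Both falls of Cd36 held in nearly every alternative, though here too some alternatives could not move the fold change. Against 3 weeks all 19 passed, from -3.68 to -2.57, and against normal diet 18 passed, from -3.04 to -1.90 over the 19, the exception being replicate 3 as the only control (-2.93, adjusted p = 0.0697). Markers of other cells that make Cd36 did not all move alike. Those of macrophages and platelets follow here. Those of small vessels, whose sum was higher at 7 weeks mainly through Kdr, are in the next paragraph. The summed linear level of 8 monocyte and macrophage markers, in units of the 75th percentile, was 30.0 to 47.2 on normal diet, 54.8 to 81.4 at 3 weeks and 16.9 to 29.2 at 7 weeks. Of these markers 3 rose and 0 fell at 3 weeks, 0 rose and 3 fell at 7 weeks against normal diet, and 0 rose and 5 fell against 3 weeks, and all 8 were well above background on each array. For 5 megakaryocyte and platelet markers the sum was 17.9 to 50.8, 21 to 64.7 and 6.12 to 38.8, with 1 lower at 7 weeks in either comparison. The part of these cells in the values of Cd36 was not tested.

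Other marker lists gave values beside Aqp1, Slc14a1 and Cd44, which vessels or white cells can also make, and those of vessels apply to Cd36 as well. The 2 measured endothelial markers of 5 summed to 3.31 to 4.59 on normal diet, 2.49 to 3.96 at 3 weeks and 6.49 to 9.92 at 7 weeks. Kdr, 1 of them, passed at 7 weeks at 1.02 against normal diet, and at 0.21 before scaling. Its mean level at 7 weeks was 2.84, where that of Pecam1 was -0.33, so the sum was mainly Kdr. Another Kdr probe gave 0.81 (adjusted p = 0.438) against normal diet and 0.12 (adjusted p = 0.915) against 3 weeks. Pecam1 did not pass in any comparison. Neutrophil markers summed to 212 to 586, 271 to 438 and 348 to 555, B lineage markers to 4.24 to 6.86, 8.95 to 21.3 and 3.33 to 9.53, and T and NK markers to 17.7 to 20.1, 17.5 to 23.7 and 22.2 to 37.4. The counts that rose and fell at 3 weeks were 2 and 0 of 8 neutrophil, 2 and 0 of 6 B lineage and 0 and 0 of 5 T and NK markers. At 7 weeks against normal diet they were 1 and 0, 1 and 1, and 1 and 0, and between the low iron groups 2 and 3, 1 and 1, and 1 and 0. Early progenitor markers summed to 1.58 to 2.6, 2.27 to 4.05 and 0.713 to 2.35, with 0 of 4 past the test in either comparison with normal diet and 1 lower between the low iron groups. Another probe of 1 of them, Cd34, fell at 7 weeks (-3.03, adjusted p = 0.00759, against normal diet and -4.85, adjusted p = 0.00053, against 3 weeks). Erythroblast markers summed to 1790 to 1910, 1550 to 1650 and 2340 to 3580, with 0 of 8 past the test at 3 weeks, and 3 higher and 1 lower at 7 weeks against normal diet, and 4 higher and 1 lower between the low iron groups. The 3 higher against normal diet, Slc4a1, Hbb-bt and Alas2, were at 0.93, 0.85 and 0.84, but at 0.13, 0.05 and 0.03 before scaling and 0.06, 0.11 and -0.02 with quantile normalization, so these calls depended on the scaling. The part of any of these cells in the results on the 9 genes was not tested.

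A comparison free of any shift common to all probes of an array sets each gene against the other 8 on that array. A difference between arrays that varies with the strength of the signal is not removed by it. This comparison was chosen after the levels had been seen and is a description with no test. The 8 differences of a gene all hold that gene, so they are not separate results, and no share over other pairs of genes was taken. At 3 weeks the log2 difference of Aqp1 to 7 of the other 8 genes was lower on all 3 arrays than on any normal diet array, Slc14a1 being the exception, and Slc14a1 in turn was lower against 7, all but Aqp1. At 7 weeks against normal diet Slc14a1 was lower against 7 of 8, overlapping with Cd36 alone, and Cd36 was lower against 6, overlapping with Rhag and Slc14a1. Aqp1 was then lower against 3 and higher against 2, so it no longer stood at the bottom of the set. Kel was higher against 7 of 8 at 7 weeks, with Cd44 overlapping. Between the low iron groups Cd36 was lower against all 8 and Slc14a1 against 6.

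**Figure D4:**
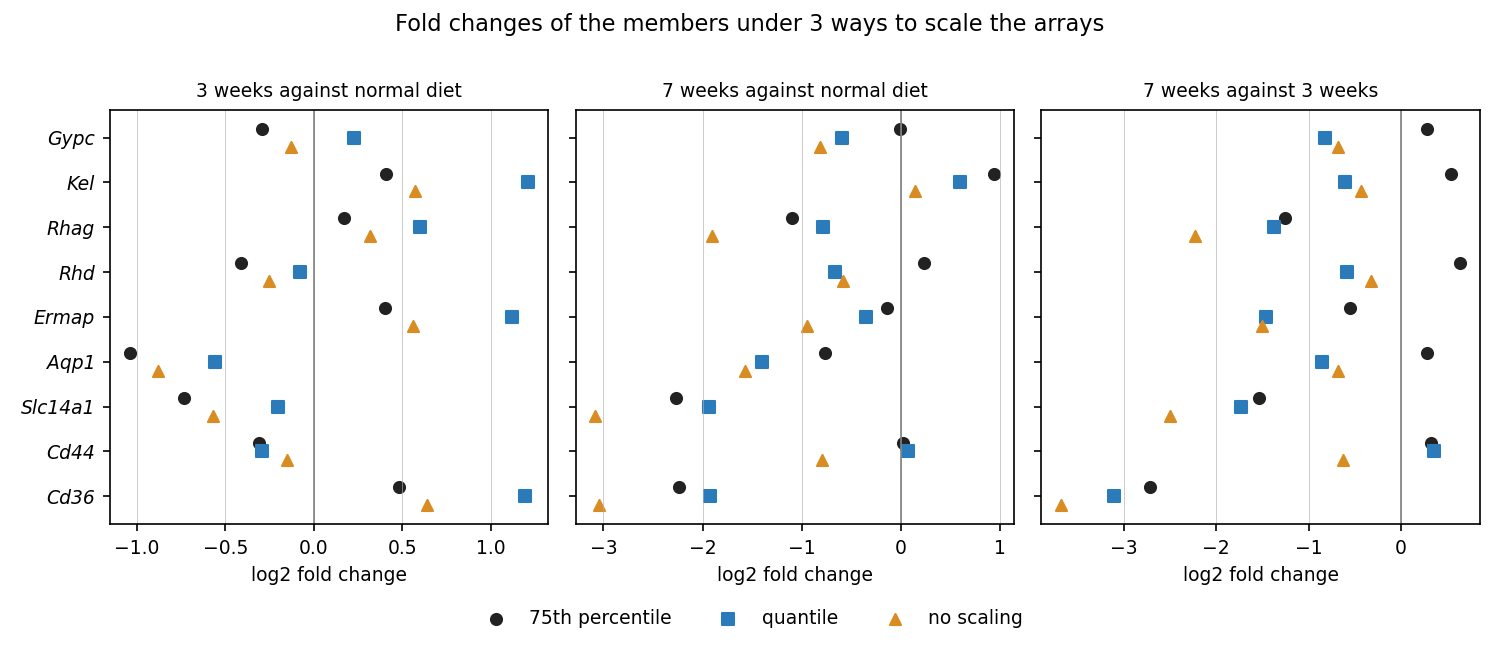
Fold changes of the 9 genes (x axis, log2) in the 3 comparisons with the arrays scaled to the 75th percentile, by quantile normalization, or not scaled. Slc14a1 and Cd36 lie left of 0 at 7 weeks by all 3 scalings, while Gypc, Kel, Rhd and Aqp1 lie right of 0 between the low iron groups by the 75th percentile and left of it by the other two.

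Proteins that bind these 9 in the membrane were followed as a list of 11 genes. At 3 weeks 0 rose and 1 fell, with a median of -0.22 where all genes had -0.17. At 7 weeks against normal diet 2 rose and 2 fell (median -0.21, all genes -0.26), and between the low iron groups 4 rose and 2 fell (median -0.2, all genes -0.13). Those past the test were 9.09%, 36.4% and 54.5% of the list, against 11.4%, 29.5% and 37.2% of all genes. Ezr, the ezrin linker between Cd44 and actin, fell in all 3 (-2.19 ± 0.53, adjusted p = 0.032, then -4.47 ± 0.53, adjusted p = 0.00198, and -2.27 ± 0.53, adjusted p = 0.0101).

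Of the partners that were higher at 7 weeks, Slc4a1 and Epb41 depended on the scaling. Slc4a1, the band 3 anion exchanger, was 0.93 ± 0.26 above normal diet (adjusted p = 0.027) and 1.16 ± 0.26 above 3 weeks (adjusted p = 0.00843) at 7 weeks, but 0.13 and 0.19 before scaling and -0.06 against 3 weeks with quantile normalization. Msn, the moesin linker, gave 0.95 ± 0.29 (adjusted p = 0.0399) and 1.27 ± 0.29 (adjusted p = 0.00962), with 0.14 and 0.31 before scaling and 1.16 and 1.22 with quantile normalization. Epb41, protein 4.1, passed against 3 weeks by its brightest probe (1.08 ± 0.29, adjusted p = 0.019, and -0.16 with quantile normalization), where 2 other probes gave -0.26 and -0.18. Cd47 and Icam4, which sit in the Rh complex, did not pass. Against 3 weeks they were at -0.20 and 0.19, but at -1.16 and -0.78 before scaling and -1.22 and -0.90 with quantile normalization. Xk, which is bound to Kel, was at -0.94 at 7 weeks (adjusted p = 0.0677), where another of its probes passed at -1.70 (adjusted p = 0.0298).

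In a list of 20 other genes, most of them for red cell antigens, 0 rose and 1 fell at 3 weeks. At 7 weeks 0 rose and 6 fell, and between the low iron groups 1 rose and 1 fell. Their medians were -0.21, -0.04 and 0.03, where all genes had -0.17, -0.26 and -0.13. In the same order 5%, 30% and 10% of the list passed, against 11.4%, 29.5% and 37.2% of all genes. Cd151, a tetraspanin, fell at 3 weeks by 2.03 ± 0.39 (adjusted p = 0.0178) and at 7 weeks by 2.13 ± 0.39 (adjusted p = 0.00649), while its other tested probe gave 0.10 (adjusted p = 0.925) and 0.59 (adjusted p = 0.456). Cd55, which restrains complement and carries the Cromer antigens, fell at 7 weeks by 1.95 ± 0.36 (adjusted p = 0.00647) against normal diet and by 2.02 ± 0.36 (adjusted p = 0.0031) against 3 weeks. Slc29a1, a nucleoside transporter, fell at 7 weeks by 1.89 ± 0.56 (adjusted p = 0.0344). The gene that was higher between the low iron groups, Add1 of the membrane skeleton, at 0.90 ± 0.31 (adjusted p = 0.0438), was at -0.06 without scaling and -0.31 with quantile normalization, and another probe gave -1.08.

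Of 17 other channels and transporters of red cells, 0 rose and 2 fell at 3 weeks and 1 rose and 2 fell at 7 weeks. Between the low iron groups 5 rose and 3 fell. These were 11.8%, 17.6% and 47.1% of the list, against 11.4%, 29.5% and 37.2% of all genes. The medians were -0.1, 0.44 and 0.26, where all genes had -0.17, -0.26 and -0.13. One that fell at 3 weeks was Atp2b4, a calcium pump (-1.27 ± 0.30, adjusted p = 0.0298), by its brightest probe, where 2 others gave -0.44 and 0.47 and did not pass. At 7 against 3 weeks the brightest probe was higher (1.67 ± 0.30, adjusted p = 0.00326), and the 2 others gave 2.69 (adjusted p = 0.000591) and 0.09 (adjusted p = 0.883). Against normal diet the 3 probes were then at 0.40 (adjusted p = 0.332), 2.24 (adjusted p = 0.00365) and 0.56 (adjusted p = 0.332). At 7 weeks Slc2a1, a glucose transporter, rose against normal diet (6.37 ± 1.15, adjusted p = 0.00625) and against 3 weeks (4.81 ± 1.15, adjusted p = 0.0114). Kcnn4, the calcium-activated potassium channel, fell in the same comparisons by 1.22 ± 0.33 (adjusted p = 0.0254) and 1.68 ± 0.33 (adjusted p = 0.00493). Against 3 weeks the list also held Atp1b2, an ion pump subunit (2.49 ± 0.67), on the higher side. On the lower side were Atp2b1, a calcium pump (-2.83 ± 0.68, adjusted p = 0.0116), and Aqp9, a glycerol channel (-2.82 ± 0.96, adjusted p = 0.0448). Each was well above background on only 2 of the 3 arrays at 7 weeks, so the size of these falls is uncertain.

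Surface proteins that mark erythroblast stages included 10 measured genes of 12, of which 0 rose in any comparison and 1, 3 and 3 fell. These were 10%, 30% and 30% of the list, near or below the 11.4%, 29.5% and 37.2% of all genes that passed. The list had medians of 0.13, -1.08 and -0.37, where all genes had -0.17, -0.26 and -0.13. Itga4, the alpha4 integrin, fell at 3 weeks (-1.28 ± 0.31, adjusted p = 0.0316, another probe at 0.51) and at 7 weeks (-1.20 ± 0.31, adjusted p = 0.0203). Its partner Itgb1 fell at 7 weeks against normal diet (-1.61 ± 0.35, adjusted p = 0.0109) and against 3 weeks (-2.44 ± 0.35, adjusted p = 0.00122). Vcam1, the integrin's ligand on macrophages, fell as well (-1.99 ± 0.32, adjusted p = 0.0043, and -2.26 ± 0.32, adjusted p = 0.00123). Kit, the stem cell factor receptor, fell against 3 weeks (-2.20 ± 0.70, adjusted p = 0.0347), and was well above background on only 2 of the 3 arrays at 7 weeks. Tfrc, the transferrin receptor, was at 0.35 and 0.68 against normal diet by its brightest probe and did not pass. Its 2 other probes went the other way at 7 weeks, at -1.68 (adjusted p = 0.028) and -1.39 (adjusted p = 0.108) against normal diet and at -1.98 (adjusted p = 0.0105) and -1.99 (adjusted p = 0.028) against 3 weeks. Another Vcam1 probe rose at 3 weeks (2.43, adjusted p = 0.0158) and gave -0.92 (adjusted p = 0.166) and -3.35 (adjusted p = 0.000988) at 7 weeks. Vcam1 is also on the list of macrophage markers given beside Cd36.

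The genes that work with Cd36 in fatty acid handling and with Cd44 in hyaluronan binding, 10 measured of 12, moved in both directions. At 3 weeks 1 rose and 2 fell, at 7 weeks 2 rose and 3 fell, and between the low iron groups 2 rose and 4 fell. These were 30%, 50% and 60% of the list, against 11.4%, 29.5% and 37.2% of all genes. The medians were -0.38, -0.75 and -0.27, where all genes had -0.17, -0.26 and -0.13. Fabp5 and Fabp4, which bind fatty acids inside the cell, rose at 7 weeks where Cd36 fell, by 4.11 ± 0.65 (adjusted p = 0.00409) and 2.62 ± 0.40 (adjusted p = 0.00379) against normal diet and by 4.43 ± 0.65 (adjusted p = 0.00135) and 3.05 ± 0.40 (adjusted p = 0.000935) against 3 weeks. Acsl4 and Acsl1, which couple fatty acids to coenzyme A, fell at 3 weeks by 1.52 ± 0.30 (adjusted p = 0.0185) and 1.15 ± 0.29 (adjusted p = 0.0375) and at 7 weeks by 2.71 ± 0.30 (adjusted p = 0.00171) and 1.46 ± 0.29 (adjusted p = 0.00873). Another Acsl1 probe gave 0.16 at 3 weeks (adjusted p = 0.849) and -1.49 at 7 weeks (adjusted p = 0.0384). Hmmr, a second hyaluronan receptor that is also a gene of dividing cells, fell at 7 weeks by 1.92 ± 0.31 (adjusted p = 0.00422) against normal diet and by 2.32 ± 0.31 against 3 weeks. Mmp9, a protease that is also on the neutrophil list, rose at 3 weeks by 3.52 ± 0.52 (adjusted p = 0.00939) and was 4.03 lower at 7 than at 3 weeks, and Lpl, a lipase, was 1.70 lower.

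The tested genes whose levels followed each of the 9 most closely over the 9 arrays, outside the set, are given by Pearson r as a description with no test, since arrays of a group share diet, slide and scan. For Slc14a1 these were Zfp830 (0.993) and Ccnc (0.991), and for Cd36 Rbbp5 (0.989) and Sgo2a (0.985). Aqp1 was nearest to Hnrnpd (0.978) and Ntan1 (0.977), and Cd44 to Coq7 (0.978) and Lamtor2 (0.974). Kel was nearest to Prkab2 (0.987) and E4f1 (0.985), Rhag to Chac2 (0.991) and Pkn2 (0.976), and Rhd to Cyb5a (0.985) and Efna4 (0.976). Gypc was nearest to Rnf6 (0.98) and Ptbp3 (0.978), and Ermap to Dcaf6 (0.981) and Usp40 (0.98). Within the set, Slc14a1 and Cd36 had an r of 0.84 and Rhag and Cd36 of 0.82.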

How the data were processed

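RNA of 9 samples, 3 per group, was measured on one-colour Cy3 arrays of 62976 spots. The deposited scanner files give the intensity of each spot as written by Agilent Feature Extraction 10.7.3.1, background-subtracted and detrended within the array and not scaled between arrays, per the file headers. The deposited series table gives log2 values for 34922 probes. Set against the scanner values (r of 0.997 to 0.999), it runs in the same direction and was centred on each probe. Its array medians were 0, except -0.019 for 7 week replicate 2, and its normalization between arrays is not given in the sources used here.

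From the intensities, log2 signal minus the 75th percentile of each array was taken, spots of a probe were averaged, and outlier spots were left out; no spot was saturated. Probes were named by RefSeq accession through a gene table of build GRCm38.p6. Tested were the 34486 probes that were well above background throughout 1 or more groups, and the brightest tested probe stood for a gene (14506 genes). All 9 arrays were fitted in 1 model by lmFit and eBayes of limma (version 3.58.1, R 4.3.3), with two-sided tests, Benjamini-Hochberg adjustment and a threshold of 0.05. The scripts were tested on simulated data.

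The 9 genes and the gene lists were chosen with earlier results of these data known. All 9 are named. Of each list, up to 3 genes past the threshold with the largest fold change in each direction are named in a comparison, while lists of cell markers are given by counts and sums; a few listed genes are counted but not reported here by name; partners of the 9 that did not pass and are named were chosen after their values were seen. The motifs were searched in promoter sequences from RefSeq. Alternatives changed the background correction (normexp with offset 50, on median signals, since the planned mean-signal column was not used here), the scaling, the filter, the probe choice, the arrays in the fit, array weights, the replicate block and the controls. The number of arrays limits the precision.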

Additional observations from a re-analysis of the deposited data

Results flagged for a closer look

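For 3 results the effect of 7 weeks of low iron diet differed from that of 3 weeks when the difference itself was tested with limma, which is the comparison of 7 with 3 weeks in the results above, since the shared normal diet arrays cancel, and no further test. For Slc14a1 the 7 week effect minus the 3 week effect was -1.54 on the log2 scale (adjusted p = 0.00213), with all 3 arrays at 7 weeks below all 3 at 3 weeks. For Cd36 it was -2.72 (adjusted p = 0.000759), again with no overlap. The Ermap probe A_55_P2153381 differed by -2.13 (adjusted p = 0.000994 over all probes), while the 2 brighter Ermap probes gave -0.55 and 0.39 and did not pass. Each group was on its own slide, so these differences cannot be told apart from one between slides.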

How the results depend on the processing

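Against 3 weeks, the 7 week falls of Slc14a1 and Cd36 kept their direction and passed in all 19 alternatives. Against normal diet they passed in 18. Not every alternative could move a fold change. Leaving out arrays of a group not compared, fitting only the 2 groups, and the replicate block could change only its error and adjusted p. For genes with 1 probe this also holds for dropping the filter and for the mean over probes. The Aqp1 calls passed in 10 alternatives at 3 weeks and 4 at 7 weeks. The cause of each change below was not tested, and slide as a block was not run, since each slide held 1 group. Taking the 3 week and the 7 week comparison with normal diet and then the one between the low iron groups, 1653, 4278 and 5391 genes passed, and 1, 3 and 2 of the 9. Normexp gave 4 of the 9 in the last comparison (Rhd higher and Rhag lower besides Slc14a1 and Cd36). Of all genes 3082 were higher and 2595 lower there. With normexp 44.8% of 7 week calls against normal diet were higher (36.4% in the report). Quantile normalization gave 2 of the 9 in the first (Kel and Ermap, higher, and not Aqp1) and 6 in the last, and 2 and 7 probes. Of all genes 624 were then higher and 785 lower in the first, and 2259 and 3226 in the last. The share of all probes was not counted for this setting. Without scaling, 966 genes and 0 of the 9 passed in the first (3756 genes at an unadjusted p under 0.05), 7100 and 5 in the second, and 4 of the 9 in the last. With no filter on dim probes, 0 of the 9 and 0 of their probes passed in the first, where 447 genes were higher and 825 lower. In the second 6939 genes passed. Fitting only the 2 groups compared gave 4416 genes and 2 of the 9 in the first and 2819 genes in the second. Array weights gave 4962 genes and 2 of the 9 in the first. With replicate 3 as the lone normal diet array, assumed to vary like the other groups, 0 and 1 genes and 0 and 0 of the 9 passed against normal diet. With 1 array left out, gene counts ran from 198 (without normal diet replicate 2) to 3503 (without 7 week replicate 1), from 1739 to 5210 and from 3544 to 6489, and counts of the 9 from 0 to 2, 2 to 3 and 2 to 5. The replicate numbers of the labels did not pair the arrays (correlations of same-numbered deviations from -0.17 to 0.29); with the replicate block 1401, 4063 and 5245 genes and 1, 2 and 3 of the 9 passed, Aqp1 being lost at 7 weeks (adjusted p = 0.0637) and Rhag gained against 3 weeks (0.0364).

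Among the 9, the values that changed sign were of genes that had not passed. With quantile normalization these were Gypc at 3 weeks (0.23), Rhd at 7 weeks (-0.66) and, against 3 weeks, Gypc (-0.82), Kel (-0.60), Rhd (-0.58) and Aqp1 (-0.85). Without scaling they were Rhd (-0.58) and Cd44 (-0.79) at 7 weeks and, against 3 weeks, Gypc (-0.68), Kel (-0.43), Rhd (-0.32), Aqp1 (-0.68) and Cd44 (-0.63). Cd44 at 7 weeks was -0.02 in the series table and -0.46 as a mean over probes, and -0.23 against 3 weeks as that mean. With normal diet replicate 3 alone, Rhag (-0.06) and Cd36 (-0.21) turned at 3 weeks. With 1 array left out, 3 week Rhag ran from -0.10 to 0.33, 7 week Gypc from -0.35 to 0.25, Ermap from -0.44 to 0.16 and Cd44 from -0.32 to 0.69, and against 3 weeks Gypc from -0.06 to 0.53 and Cd44 from -0.01 to 1.00. Signal over background was lowest for Cd44, which limits what its 4 probes can show.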
